A study of Mus musculus with 15 samples.

Results

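Endometrial organoids in which SMAD2/3 signaling was targeted by gene deletion and by a receptor inhibitor together (*Smad2/3* cKO + A83-01, n = 4) were compared with organoids that received neither (control + vehicle, n = 3), which makes 7 of the 15 samples of the series. Organoids are cultures of uterine epithelial cells that grow as hollow or lobed bodies in Matrigel. Every group carried both alleles of *Smad2* and of *Smad3* in floxed form (Smad2flox/flox; Smad3flox/flox), and only the *Smad2/3* cKO groups also carried Cre recombinase from the lactoferrin gene (Ltfcre/+). Control + vehicle cultures received DMSO, and the combined group received A83-01, an inhibitor of the receptor kinases ALK4, ALK5 and ALK7. The remaining groups, control + A83-01 (n = 4) and *Smad2/3* cKO with DMSO (n = 4), are used here only to place the combined group. The study describes its mice in general as adults of a mixed C57BL/6J and 129S5/SvEvBrd background, and the labels give no age for the mice behind each sample.

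Some limits of the model follow from the methods of the study. The *Ltf* promoter drives Cre in uterine epithelium in response to estrogen, and mice were given estradiol at weaning so that Cre was induced. Deletion therefore depends on which epithelial cells had expressed *Ltf*. The medium of all groups held WNT3a, R-spondin and Noggin, the last of which binds BMP ligands, together with EGF and a supplement without vitamin A. Per the labels, several mice of each genotype gave organoids, but no label says which mouse gave which sample. Numbers in the sample descriptions recur between groups, also across genotypes, while control + vehicle and the combined group share none.

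TGFβ and activin ligands bind pairs of receptor kinases, and the type 1 receptors ALK4, ALK5 and ALK7 phosphorylate SMAD2 and SMAD3. The phosphorylated proteins join SMAD4 and bind DNA, where they raise matrix genes and their own inhibitors. BMP ligands use other type 1 receptors and SMAD1 and SMAD5, and share SMAD4. In the uterine epithelium TGFβ signaling is known for restraining growth.

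The values are normalized counts, that is, reads estimated per gene and scaled to make samples comparable. Of 16729 genes in the table, 13097 had a mean of at least 10 over the 7 samples and were tested, and 3632 did not. The total per sample lay between 20241771 and 22489489 normalized counts in control + vehicle and was 23208569 to 23870175 in the combined group. Reads on genes, estimated roughly from the spacing of low values, were 22.6 to 23.3 M in control + vehicle and 18.5 to 42.9 M in the combined group. By this estimate replicate 3 of the combined group was the deepest. The 10 epithelial markers (among them *Epcam*, *Cdh1* and *Krt18*) were measured in every sample, and their normalized counts summed to 266827 to 343490 in control + vehicle and 137056 to 207193 in the combined group. Markers of stroma summed to 37.0 to 203 and 6.49 to 136 (*Vim* was listed at 0 in the combined group), those of smooth muscle to 73.9 to 219 and 30.4 to 86.5, and those of endothelium to 1.80 to 5.17 and 1.57 to 11.5. Leukocyte markers summed to 1332 to 2976 in control + vehicle and 4036 to 8024 in the combined group, although the macrophage genes *Tyrobp*, *Fcer1g* and *Adgre1* were at 0 or below 10 in all 7 samples. In such bulk samples fewer cells of a type and less RNA per cell cannot be told apart.

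The targeted genes were read first. *Smad2* (ENSMUSG00000024563) had 1335, 1132 and 1045 normalized counts in control + vehicle and 813, 1211, 854 and 804 in *Smad2/3* cKO + A83-01. Replicate 2 of the combined group thus lay within the control range, while the other 3 lay below it. Its log2 difference was −0.36 (standard error, SE, 0.19, adjusted p = 0.199 from limma). *Smad3* (ENSMUSG00000032402) had 1532, 1741 and 1599 in control + vehicle and 1659, 797, 1689 and 1648 in the combined group, a log2 difference of −0.23 (SE 0.26, adjusted p = 0.576). Without replicate 2 the difference of *Smad3* was 0.038. These values cover the whole gene, so transcripts that lack the floxed exons are counted with intact ones, and they do not bear on whether the exons were lost. *Smad4*, the partner of SMAD2 and SMAD3, had means of 1934 and 1979 (log2 difference 0.06, adjusted p = 0.839, and −0.11 without control + vehicle replicate 3).

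Against control + vehicle, 799 genes were higher and 739 lower in the combined group. A gene counted as such when its adjusted p (Benjamini-Hochberg) was under 0.01 and it differed by a fold of over 1.4 (or under 0.714). These 1538 genes are 11.7% of those tested, with 6.1% higher and 5.64% lower. The counts of list members given below are to be read beside these shares. In each of them the values of the groups did not overlap, as in 33% of all genes tested. An unadjusted p below 0.05 was reached by 4622 genes (35.3%). The median log2 difference over all genes tested was −0.0072, so the changes are read against a centre near 0. Large changes were frequent in both directions: 333 genes rose and 378 fell at least 4-fold, 135 and 130 at least 16-fold, and 38 and 35 at least 64-fold.

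**Figure D1:**
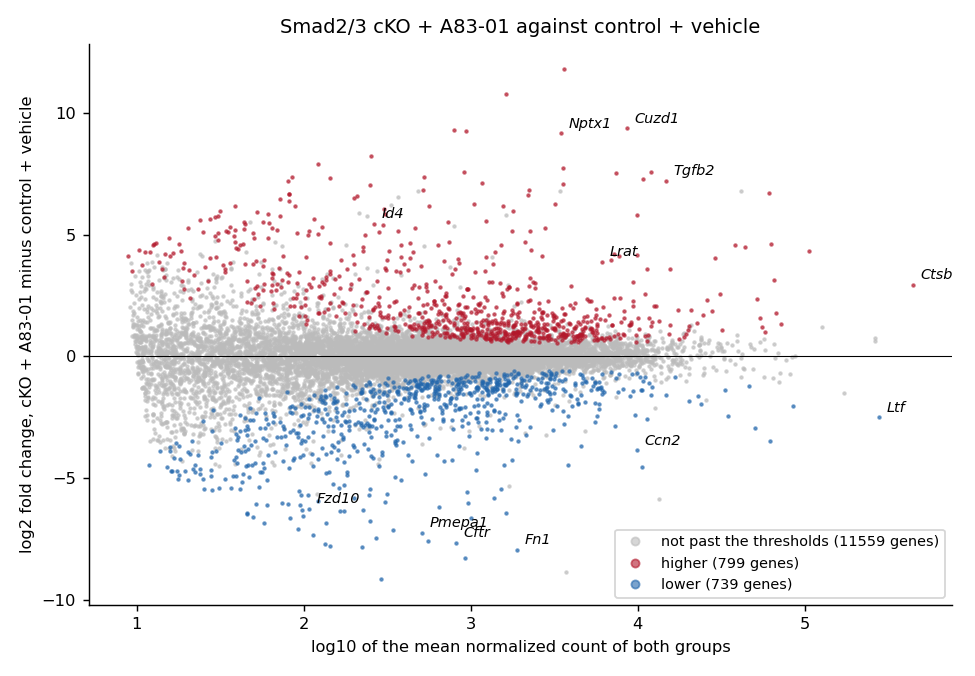
Log2 fold change of each of the 13097 genes tested, *Smad2/3* cKO + A83-01 (n = 4) minus control + vehicle (n = 3), on the y axis, against the log10 of the mean normalized count of both groups on the x axis. Red points are the 799 genes higher, blue points the 739 lower and grey points the genes not past the thresholds. Points lie on both sides of 0 over the whole range of levels, with *Cuzd1* at 9.39 and *Fn1* at −7.94 among the farthest.

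The number of genes depended on single samples. It was 802 without control + vehicle replicate 1, 736 without replicate 2 and 935 without replicate 4 of the combined group, and 1144 to 1580 without any one of the others. Leaving out replicate 2 of the combined group, the sample with the control-like *Smad2* value, gave 1580 genes (785 higher and 795 lower), of which 1338 were among the 1538. Of 116 named genes that passed, some of them chosen after their values were seen, 77 passed in each of the fits that left out 1 sample. For most of the others described, the highest adjusted p is given with them. *Ptgr1* and *Lpo* each lost their call in 5 of the 7 fits (adjusted p from limma up to 0.0219 and 0.0244). Further genes given below as list members were not followed one by one. For these, the lack of a second p-value does not mean that the call held in every fit.

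The largest rises were of genes with low values in control + vehicle organoids, up to 186 normalized counts for *Hsd11b1*. *Cuzd1* (ENSMUSG00000040205, chr7:131308554-131322292 of GRCm38), which encodes a secretory protein with CUB and zona pellucida domains known from pancreas and uterus, had 25.7, 32.6 and 13.2 normalized counts in control + vehicle and 17803, 20468, 6855 and 23779 in the combined group. Every combined sample was far above every control (log2 fold change 9.39, SE 0.43, adjusted p = 3.61e-06, a 669-fold rise). *Nptx1*, which encodes a secreted pentraxin best known from synapses, went from 18.4, 29.6 and 1.78 to 9276, 6253, 6305 and 6032, with no overlap (log2 fold change 9.18, SE 0.67, adjusted p = 3.35e-05). *Hsd11b1*, whose enzyme turns inactive glucocorticoids into active ones, had 71.8, 116 and 186 in control + vehicle and 27491, 15593, 16821 and 35179 in the combined group. That is a 192-fold rise (log2 fold change 7.59, SE 0.36, adjusted p = 3.61e-06). *Ptpn5*, a tyrosine phosphatase gene, rose from 20.5, 16.2 and 86.6 to 6506, 4687, 8377 and 8817 (log2 fold change 7.76, SE 0.50, adjusted p = 1.86e-05).

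A further 6 of the 10 largest rises were of genes with control values at or near the lowest measurable level, so their levels are given without a fold. *Car4*, a membrane-anchored carbonic anhydrase gene, was listed at 0, 0 and 1.78 in control + vehicle and at 15562, 2153, 2045 and 9122 in the combined group (adjusted p = 1.63e-05). *Prss29*, an implantation serine protease gene of the endometrial gland, was listed at 0 in all 3 control samples and at 898, 7875, 3945 and 344 with both treatments (adjusted p = 7.7e-05). Within the combined group *Prss29* was highest in replicate 2 and lowest in replicate 4. *Il2rb*, a cytokine receptor subunit gene, was listed at 0 in control + vehicle and at 239, 222, 221 and 298 in the combined group (adjusted p = 6.19e-06). The transporter gene *Slc46a2* had 0 to 3.56 in control + vehicle and 797 to 2247 in the combined group (adjusted p = 1.29e-05). *Akr1b7*, an aldo-keto reductase gene, had 0 to 5.31 and 1237 to 2986 (adjusted p = 1.67e-05), and the calmodulin-like gene *Calml3* had 0 to 1.90 and 208 to 1034 (adjusted p = 3.75e-05). All 6 were separated between the groups.

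The largest falls mirrored these in size. *Fn1* (ENSMUSG00000026193, chr1:71585520-71653200 of GRCm38), the fibronectin gene and a classical TGFβ target, had 1884, 3828 and 5624 normalized counts in control + vehicle and 9.47, 21.2, 14.2 and 9.86 in the combined group. Every combined sample was far below every control (log2 fold change −7.94, SE 0.42, adjusted p = 6.19e-06). *Cftr*, the chloride channel gene of fluid-secreting epithelia, fell from 1319, 1903 and 1622 to 19.8, 1.33, 14.7 and 4.12 (log2 fold change −7.66, SE 0.69, adjusted p = 0.000101). *Myo3b*, an actin motor gene, fell from 1268, 1959 and 2251 to 22.1, 0, 6.65 and 5.32 (log2 fold change −8.26, adjusted p = 0.000217). *Acsbg1*, which encodes an acyl-CoA synthetase, fell from 792, 903 and 1628 to 1.57, 3.55, 15.9 and 3.69 (log2 fold change −7.58, adjusted p = 5.65e-05). In all 4 genes the lower values rest on few reads, so the size of the fall is less certain than its direction.

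Other falls ended at the lowest measurable level. *Kcng1*, a potassium channel subunit gene, had 104, 150 and 551 in control + vehicle and was listed at 0 in all 4 combined samples (adjusted p = 0.000109). *Tmprss11d*, a membrane serine protease gene, had 220 to 836 in control + vehicle and was listed at 0 in 3 combined samples and at 6.27 in replicate 3 (adjusted p = 0.000261). The protease inhibitor gene *Spink12* went from 150 to 377 in controls to values of 0 to 1.11 (adjusted p = 4.74e-05), and *Cyp21a1*, a steroid hydroxylase gene, from 196 to 278 to values of 0 to 2.67 (adjusted p = 9.6e-05). *Laptm5*, a lysosomal gene best known from blood cells, went from 207 to 1116 to values of 0.615 to 2.57 (adjusted p = 9.5e-05). *Rps12l1* had 721, 528 and 487 in control + vehicle and was listed at 0 in the combined group (adjusted p = 6.19e-06), but it is a near-identical copy of *Rps12* and the split of reads between them is uncertain. In the single treatments *Rps12l1* was listed at 0 in most samples and at 980 and 975 in 1 sample each, whereas *Rps12* had 858 to 1807 in control + vehicle and 1228 to 1768 in the combined group.

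**Figure D2:**
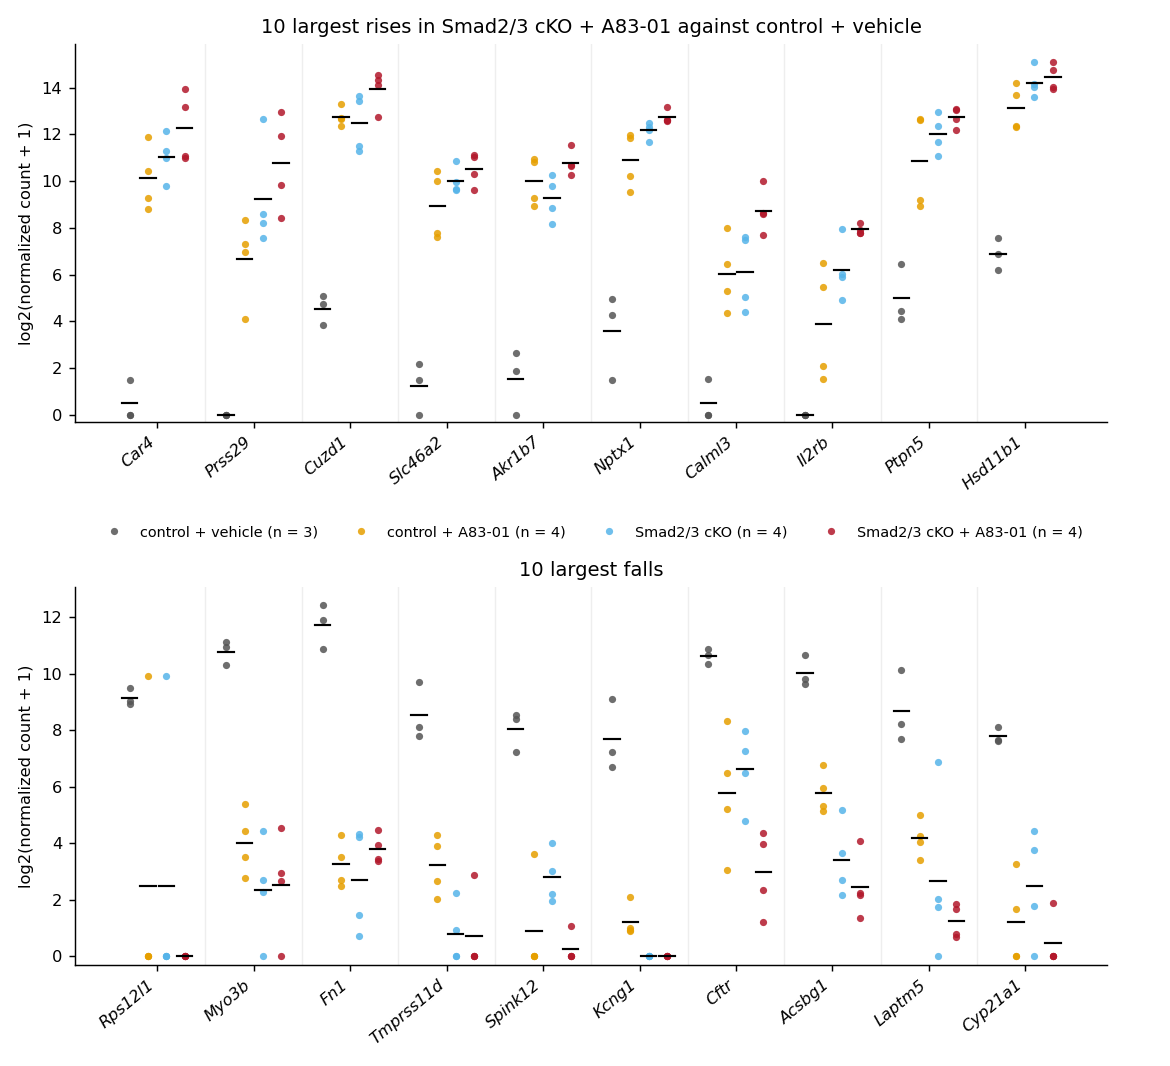
Log2 of the normalized count plus 1 (y axis) in each sample for the 10 genes with the largest rise (top) and the 10 with the largest fall (bottom), with black lines at group means. Grey points are control + vehicle (n = 3), orange control + A83-01 (n = 4), blue *Smad2/3* cKO (n = 4) and red *Smad2/3* cKO + A83-01 (n = 4). The grey and red points do not overlap for any of the 20 genes, and the single treatments lie on the side of the combined group in most of them, with *Rps12l1* of 1 sample in each single treatment above the control level.

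Among genes with high totals, *Ctsb*, the cathepsin B protease gene, took the largest share of normalized counts in each combined sample (3.20 to 3.45%). *Ltf*, the lactoferrin gene whose promoter drives Cre, did so in each control + vehicle sample (1.90 to 2.67%). *Ctsb* also ranked first in each sample of control + A83-01 (1.77 to 3.10%), which carried no Ltfcre/+, and of *Smad2/3* cKO (2.55 to 2.84%). Its first rank is therefore not particular to the combined group. *Ctsb* had 98672, 80624 and 131151 normalized counts in control + vehicle and 805427, 764674, 794820 and 770265 in the combined group (log2 fold change 2.95, adjusted p = 0.00019). *Ltf* went the other way, from 600426, 429014 and 394181 to 97582, 84975, 101268 and 54501 (log2 fold change −2.50, adjusted p = 0.000521). The combined group also carried Ltfcre/+, which control + vehicle did not. Whether that allele had a part in the lower *Ltf* values was not tested. Both were chosen after their values were seen.

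Promoters of 4 genes are shown. Under the rule for named genes, which asks for a mean of at least 100 normalized counts, *Cuzd1* and *Car4* are among the 10 largest rises and *Cftr* is among the 10 largest falls, while *Cyp26a1*, the retinoic acid hydroxylase gene, belongs to the list of retinoid enzymes. They are RefSeq sequences of GRCm38.p6 from 250 bases before to 50 bases after the start of transcription, printed 5′ to 3′ on the strand of the gene. Capitals mark GTCTG, a SMAD binding element, and AGGTCA, an element bound by nuclear receptors, retinoic acid receptors among them, each on either strand. The windows are chr7:131322243-131322542 on the minus strand for *Cuzd1*, chr11:84957504-84957803 on the plus strand for *Car4*, chr19:37697558-37697857 on the plus strand for *Cyp26a1* and chr6:18170437-18170736 on the plus strand for *Cftr*.
Cuzd1: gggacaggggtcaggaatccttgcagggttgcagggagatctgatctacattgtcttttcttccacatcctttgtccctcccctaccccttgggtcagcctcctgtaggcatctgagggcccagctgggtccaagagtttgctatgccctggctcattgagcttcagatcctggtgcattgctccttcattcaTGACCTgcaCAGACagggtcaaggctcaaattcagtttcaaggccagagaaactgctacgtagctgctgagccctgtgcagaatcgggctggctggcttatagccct
Car4: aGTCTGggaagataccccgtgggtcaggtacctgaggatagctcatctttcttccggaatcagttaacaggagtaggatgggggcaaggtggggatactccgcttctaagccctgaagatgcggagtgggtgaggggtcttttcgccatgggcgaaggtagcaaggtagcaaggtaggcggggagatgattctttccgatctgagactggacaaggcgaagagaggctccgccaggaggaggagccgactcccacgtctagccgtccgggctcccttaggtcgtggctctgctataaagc
Cyp26a1: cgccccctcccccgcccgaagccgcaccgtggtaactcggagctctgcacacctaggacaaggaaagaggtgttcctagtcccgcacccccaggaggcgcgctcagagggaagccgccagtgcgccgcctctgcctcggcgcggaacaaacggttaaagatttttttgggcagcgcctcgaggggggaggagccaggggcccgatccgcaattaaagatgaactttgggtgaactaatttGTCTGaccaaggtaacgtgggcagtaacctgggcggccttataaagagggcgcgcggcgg
Cftr: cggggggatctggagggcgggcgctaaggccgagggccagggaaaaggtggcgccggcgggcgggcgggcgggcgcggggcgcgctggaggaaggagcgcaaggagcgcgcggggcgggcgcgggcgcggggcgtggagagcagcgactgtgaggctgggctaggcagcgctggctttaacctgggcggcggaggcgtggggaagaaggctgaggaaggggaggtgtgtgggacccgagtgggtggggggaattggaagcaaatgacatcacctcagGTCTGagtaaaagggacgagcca
Each of the 4 windows held GTCTG in 1 place, and that of *Cuzd1* also held AGGTCA in 1 place. Only exact matches were sought. A window without capitals for an element, such as that of *Cyp26a1* for AGGTCA, may still hold variants of it. A RefSeq promoter was found for 628 of the 799 genes higher and 540 of the 739 genes lower. GTCTG was present in 50.5% of the former, in 48% of the latter, in 47.6% of the 9981 promoters of genes tested and in 49.7% of all 27025 promoters. AGGTCA was present in 16.2%, 10.9%, 12.2% and 16% of these. These shares are descriptions without a test, and a match is a string of letters, not evidence of binding.

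Of 28 genes for ligands, receptors and binding proteins of the TGFβ and activin pathways 17 were tested, of which 4 rose and 5 fell. *Tgfb2* (ENSMUSG00000039239, chr1:186622792-186705989 of GRCm38), which encodes 1 of the TGFβ ligands, had 129, 229 and 235 normalized counts in control + vehicle and 41707, 23291, 22364 and 30520 in the combined group. The lowest combined sample was far above the highest control, a 149-fold rise (log2 fold change 7.22, SE 0.27, adjusted p = 1.57e-06). *Tgfb3*, another ligand gene, rose by 1.84 on the log2 scale (means 1181 and 4254, adjusted p = 3.28e-05). Genes for the distant ligand *Gdf15* (log2 fold change 0.96, adjusted p = 0.00636) and for *Fstl3*, which binds activin (1.31, adjusted p = 0.00555), rose as well. *Inhba*, the subunit gene of activin A, moved opposite to *Tgfb2*, from 70.3, 234 and 260 to 6.34, 18.4, 4.66 and 10.6 (log2 fold change −4.06, adjusted p = 0.00162, and 0.0126 without control + vehicle replicate 2). *Fst*, whose product follistatin neutralizes activin, fell from 380, 1183 and 247 to 3.86, 32.4, 1.95 and 6.46 (log2 fold change −5.96, adjusted p = 0.00104). The type 2 receptor gene *Tgfbr2* fell by 1.27 on the log2 scale (means 8451 and 3505, adjusted p = 0.00114), and the genes of the latent TGFβ binding proteins *Ltbp1* (−0.66, adjusted p = 0.00583) and *Ltbp2* (−2.80, adjusted p = 0.00962) also fell. *Ltbp2* lost its call in 6 of the 7 fits that left out 1 sample (highest adjusted p = 0.0445). In those fits 2 to 4 members of the list rose and 2 to 5 fell, with the fewest, 2 and 2, without control + vehicle replicate 2.

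Among 18 SMADs and genes of SMAD feedback 17 were tested, of which 5 fell and none rose. *Pmepa1*, which encodes a membrane protein that sequesters SMAD2 and SMAD3 and is itself induced by TGFβ, had 1327, 903 and 821 in control + vehicle and 2.46, 3.86, 5.199 and 17.2 in the combined group (log2 fold change −7.24, SE 0.56, adjusted p = 3.91e-05). *Smad7*, the inhibitory SMAD gene, fell from 191, 194 and 270 to 19.0, 6.80, 8.60 and 4.70 (log2 fold change −4.49, SE 0.50, adjusted p = 0.000288). The corepressor gene *Tgif1* fell from 4003, 4224 and 3773 to 1736, 1670, 1709 and 1399, a narrow spread in both groups (log2 fold change −1.30, SE 0.13, adjusted p = 0.000175). *Skil*, another corepressor gene, fell from 540, 1102 and 890 to 201, 100, 330 and 192 (log2 fold change −2.09, adjusted p = 0.00463, and up to 0.0262 with 1 sample left out). *Smurf1*, a ubiquitin ligase gene, fell by 0.95 (adjusted p = 0.000804). *Smad1* and *Smad5*, which carry BMP signals, did not pass the thresholds. With 1 sample left out, 4 or 5 members fell.

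Of 32 genes known to respond to TGFβ in many cells 27 were tested, of which 13 fell and 1 rose. The median log2 difference of the list was −1.48. *Ccn2*, the connective tissue growth factor gene, went from 21655, 23298 and 10750 to 1220, 1276, 1520 and 946, with no overlap (log2 fold change −3.84, SE 0.27, adjusted p = 2.85e-05). *Angptl4*, which encodes an inhibitor of lipoprotein lipase, went from 632, 458 and 583 to 39.9, 29.7, 33.1 and 27.4 (log2 fold change −4.06, SE 0.28, adjusted p = 2.59e-05). The growth factor gene *Pdgfb* went from 303, 364 and 318 to 5.33, 14.5, 11.7 and 52.5 (log2 fold change −4.35, SE 0.63, adjusted p = 0.00125). Besides *Fn1*, the falls included the scaffold gene *Nedd9* (log2 fold change −2.76, adjusted p = 2.59e-05), the tropomyosin gene *Tpm1* (−1.90, adjusted p = 0.000137), the thrombospondin gene *Thbs1* (−1.59, adjusted p = 0.0013) and the cell cycle inhibitor gene *Cdkn2b* (−1.34, adjusted p = 0.00472). *Cdkn2b* lost its call in 5 of 7 fits that left out 1 sample (adjusted p up to 0.0226). *Tgfbi*, a matrix gene named for its induction by TGFβ, was the member that rose, from a mean of 3.81 to 68.3 (log2 fold change 3.83, adjusted p = 0.00849). Without 1 sample at a time 8 to 15 members fell, 8 of them without control + vehicle replicate 2.

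**Figure D3:**
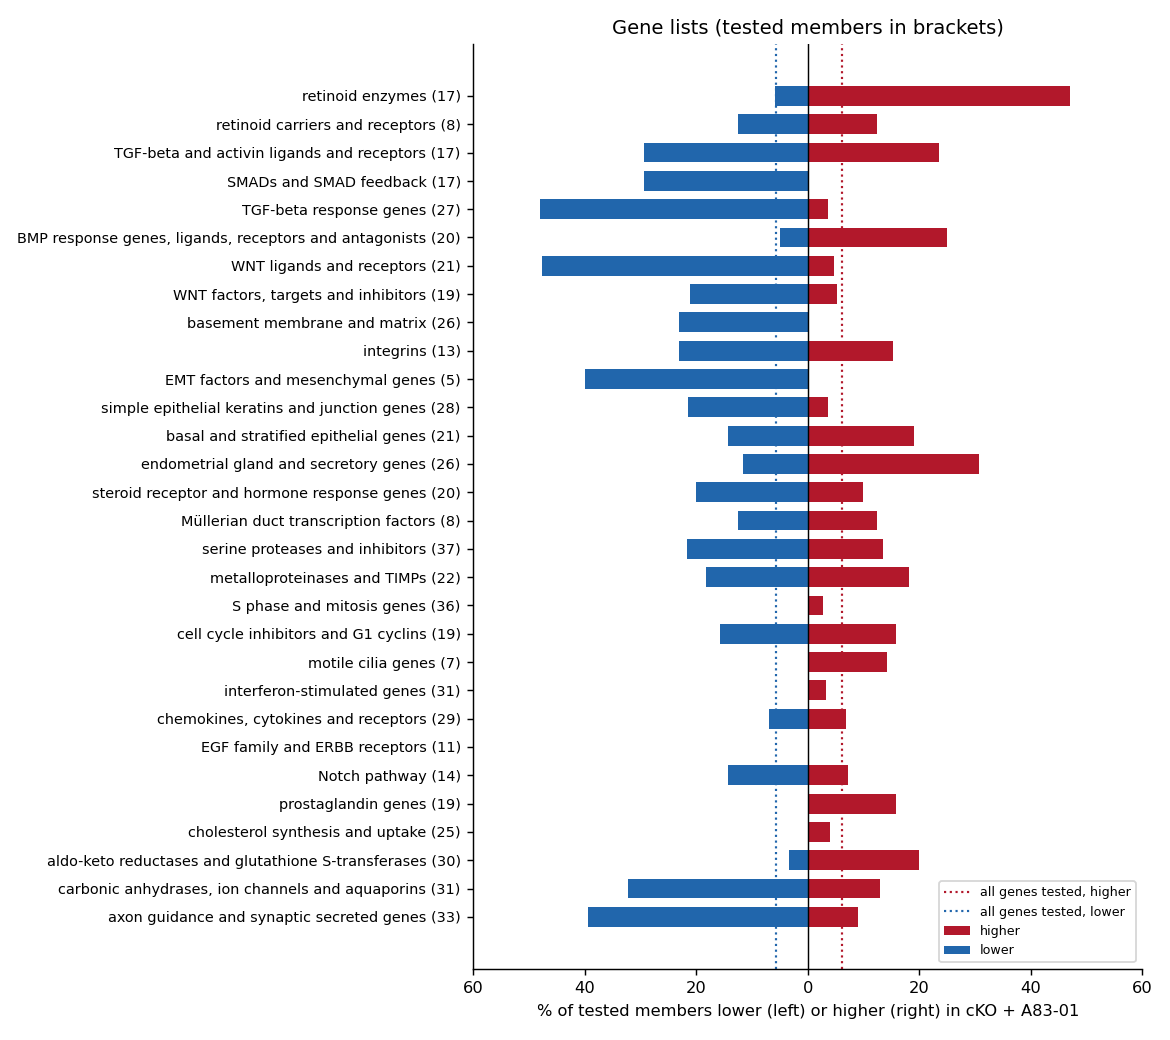
Share of the tested members of each gene list that was lower (blue, left) or higher (red, right) in *Smad2/3* cKO + A83-01 against control + vehicle, in percent, with the number tested in brackets. Dotted lines mark the shares among all genes tested, 6.1% higher and 5.64% lower. Retinoid enzymes have the largest share of higher members (8 of 17), and TGF-beta response genes (13 of 27) and WNT ligands and receptors (10 of 21) the largest shares of lower members.

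Of 23 enzymes of retinoid metabolism 17 were tested, of which 8 rose and 1 fell, with a median log2 difference of 1.26. Several of these genes had been picked by the study from the single treatments, which share the control + vehicle libraries, so the count is not independent evidence. *Lrat*, whose enzyme stores retinol as ester, had 632, 561 and 1202 in control + vehicle and 12916, 10489, 8685 and 13546 in the combined group (log2 fold change 3.90, SE 0.27, adjusted p = 2.59e-05). *Aldh1a2*, which makes retinoic acid, had 785, 496 and 1056 and then 20208, 5012, 14133 and 19651, with replicate 2 the lowest (log2 fold change 4.12, SE 0.46, adjusted p = 0.000308). *Cyp26a1*, which degrades retinoic acid and is induced by it, had 23.6, 8.50 and 7.60 and then 786, 250, 721 and 581 (log2 fold change 5.41, SE 0.50, adjusted p = 0.000117). The retinal reductase gene *Rdh12* had 69.8, 20.9 and 71.1 in control + vehicle and 5470, 4053, 8028 and 10627 in the combined group (log2 fold change 7.10, SE 0.45, adjusted p = 1.82e-05). *Adh1*, an alcohol dehydrogenase gene, was at 0 to 3.47 in controls and at 157, 1222, 94.0 and 195 in the combined group (adjusted p = 0.000821). Smaller rises were those of *Rdh11* (log2 fold change 1.96, adjusted p = 0.000152), *Dhrs9* (1.38, adjusted p = 0.00331) and *Dhrs3* (1.26, adjusted p = 0.00469), which interconvert retinol and retinal.

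*Rdh10*, the main enzyme of the first step from retinol to retinal, was the retinoid enzyme that fell (means 19446 and 3275, log2 fold change −2.58, adjusted p = 1.19e-05). Neither of the other retinal dehydrogenase genes followed *Aldh1a2*. *Aldh1a1* had 1050, 815 and 229 in control + vehicle and 112, 876, 339 and 111 in the combined group (log2 difference −1.23, adjusted p = 0.282), and *Aldh1a3* had 158, 475 and 562 and then 20.4, 67.0, 51.8 and 142 (log2 difference −2.60, adjusted p = 0.0176). Of 18 carriers and receptors 8 were tested, of which 1 rose and 1 fell. *Rbp4*, the serum carrier of retinol, rose (13.2, 13.5 and 43.1 to 139, 409, 91.5 and 134, log2 fold change 2.97, adjusted p = 0.00618). *Stra6*, the receptor that takes up retinol from that carrier, fell (143, 220 and 128 to 19.3, 40.5, 19.4 and 41.2, log2 fold change −2.45, adjusted p = 0.00316). Neither call held without control + vehicle replicate 1 or 2 (adjusted p up to 0.0293 for *Rbp4* and 0.0209 for *Stra6*). The number of enzymes that rose was 6 to 8 with 1 sample left out.

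Of 28 BMP pathway genes 20 were tested, of which 5 rose and 1 fell, with a median log2 difference of 0.22. *Id4*, which encodes an inhibitor of DNA binding that responds to BMP, had 12.7, 18.2 and 4.55 in control + vehicle and 660, 662, 334 and 416 in the combined group (log2 fold change 5.46, SE 0.46, adjusted p = 7.62e-05). *Id3* had 118, 71.5 and 161 and then 423, 920, 1328 and 784, with no overlap (log2 fold change 2.84, SE 0.40, adjusted p = 0.00103). For *Id1* the groups overlapped, at 534, 258 and 347 and at 462, 913, 1307 and 773 (log2 difference 1.15, adjusted p = 0.0434). *Id2* had means of 761 and 817 (log2 difference 0.026, adjusted p = 0.961, with a sign that depended on single samples). *Hey1*, a repressor gene of the BMP and Notch pathways, rose from 59.4, 66.4 and 49.6 to 434, 230, 301 and 184 (log2 fold change 2.21, adjusted p = 0.00148). The extracellular BMP regulator gene *Bmper* rose by 2.73 (adjusted p = 0.00388, and up to 0.0138 with 1 sample left out) and the receptor gene *Bmpr1b* by 1.27 (adjusted p = 0.00331). The homeobox gene *Dlx5* fell by 2.05 on the log2 scale (adjusted p = 0.00403). The count of members that rose was 3 to 6 with 1 sample left out, 3 of them without control + vehicle replicate 1. The Id genes were named by the study from the single treatments.

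Of 36 WNT ligands and receptors 21 were tested, of which 10 fell and 1 rose, with a median log2 difference of −1.0. *Fzd10*, a frizzled receptor gene, had 164, 181 and 297 in control + vehicle and 1.10, 0, 5.37 and 3.13 in the combined group, too low for a fold (adjusted p = 0.000298). *Fzd3* fell from 259, 136 and 107 to 15.1, 11.1, 19.2 and 23.3 (log2 fold change −3.16, SE 0.45, adjusted p = 0.00108) and *Fzd7* from 87.0, 76.9 and 76.7 to 10.1, 5.12, 13.9 and 14.7 (log2 fold change −2.85, adjusted p = 0.00283, and up to 0.0162 with 1 sample left out). The ligand gene *Wnt9a* fell from 185, 197 and 121 to 22.6, 5.13, 28.3 and 16.4 (log2 fold change −3.32, adjusted p = 0.00281, and up to 0.0179). *Wnt7a*, a ligand of the uterine epithelium needed for gland formation, fell by 2.54 (means 1842 and 345, adjusted p = 0.00311), and *Wnt7b* by 1.97 (adjusted p = 0.00686). *Ror2*, a receptor gene of WNT5A, had 197, 354 and 393.1 and then 19.5, 0, 18.8 and 5.21 (log2 fold change −5.42, adjusted p = 0.00374, and up to 0.0204). *Wnt5b*, another ligand gene, rose instead, from 4.89, 18.3 and 20.7 to 497, 1866, 337 and 170 (log2 fold change 5.15, SE 0.76, adjusted p = 0.00143). *Fzd1*, which separated the groups at 351 to 559 and 125 to 251, missed the threshold (log2 difference −1.31, adjusted p = 0.0111), and *Fzd2* was below the minimum mean.

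The number of WNT ligands and receptors that fell was 3 without control + vehicle replicate 1, 3 without replicate 2 and 6 without replicate 4 of the combined group, and some of these genes had been named by the study from the single treatments. Of 30 nuclear factors, targets and inhibitors of the pathway 19 were tested, of which 4 fell and 1 rose. *Tcf7l1*, a repressor of WNT targets, had 131, 174 and 260 in control + vehicle and 0.785 to 4.62 in the combined group (adjusted p = 0.00016). The cyclin gene *Ccnd2* fell from 2559, 934 and 454 to 26.0, 22.6, 189 and 62.6 (log2 fold change −4.29, adjusted p = 0.00375) and the factor gene *Tcf7* from 348.9, 396.1 and 366.7 to 60.5, 161, 99.3 and 42.0 (log2 fold change −2.20, adjusted p = 0.00528). Both lost their calls in at least 4 of the fits without 1 sample (adjusted p up to 0.0185 and 0.0261). *Tnfrsf19*, a TNF receptor family gene and WNT target, rose from 655, 620 and 1001 to 4423, 3463, 3453 and 3233 (log2 fold change 2.29, SE 0.19, adjusted p = 7.62e-05). *Lgr5*, a stem cell marker and WNT target, had 0 to 21.4 and 11.4 to 54.6 (log2 difference 1.67, adjusted p = 0.303).

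**Figure D4:**
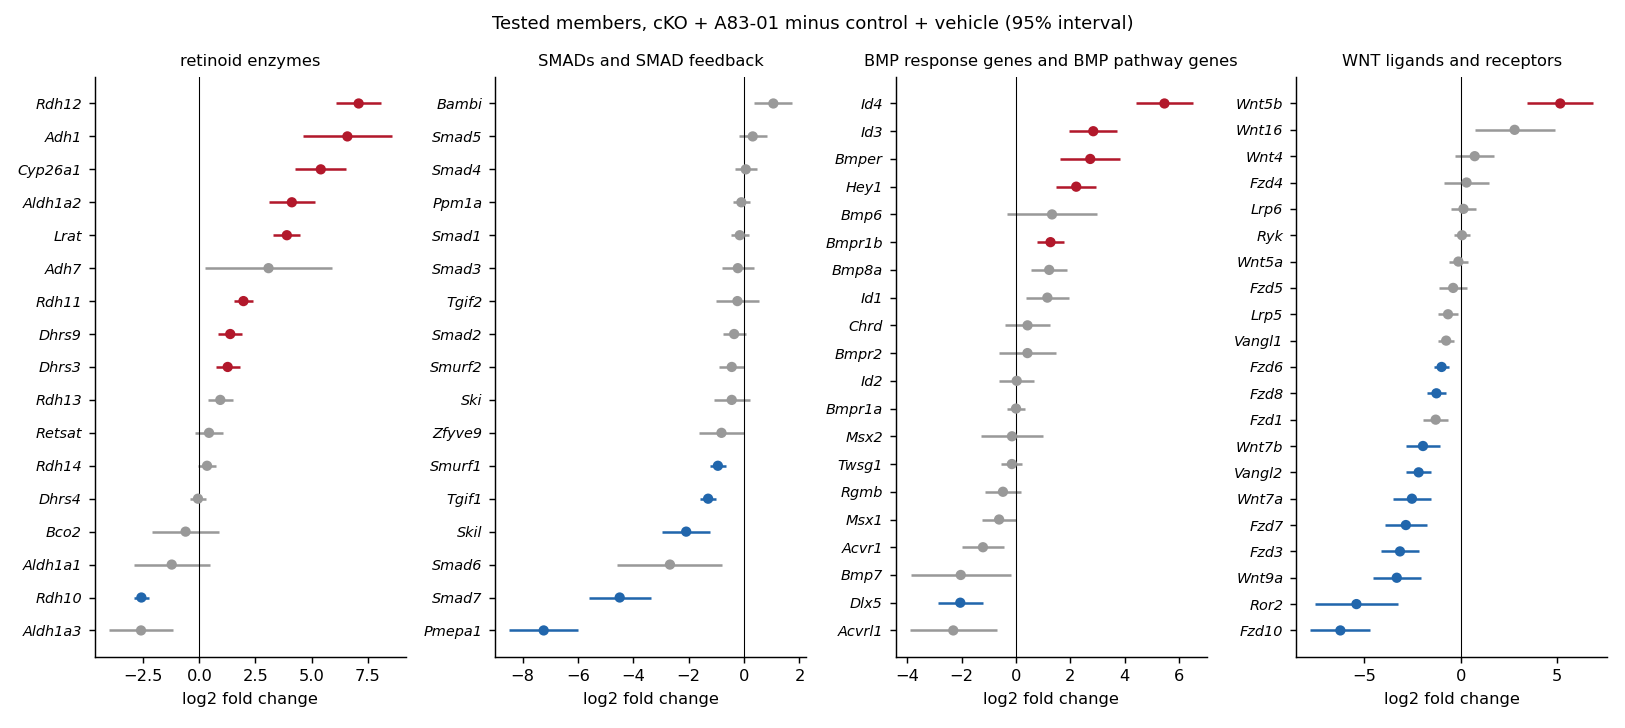
Log2 fold change (x axis) with its 95% interval from limma for each tested member of 4 lists, *Smad2/3* cKO + A83-01 minus control + vehicle. Red points rose, blue points fell and grey points did not pass the thresholds. *Rdh12* at 7.10 heads the retinoid enzymes, *Pmepa1* at −7.24 ends the SMAD feedback genes, *Id4* at 5.46 heads the BMP genes, and *Wnt5b* at 5.15 stands alone above 10 WNT ligands and receptors that fell.

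Of 37 basement membrane and matrix genes 26 were tested, of which 6 fell and none rose, and the median log2 difference was −1.11. *Lama3*, a laminin chain gene of epithelial basement membrane, fell from 2748, 3846 and 4873 to 307, 171, 618 and 727 (log2 fold change −3.24, SE 0.45, adjusted p = 0.00105). *Lamb1* fell from 3873, 4291 and 5555 to 983, 1277, 1600 and 1139 (log2 fold change −1.88, SE 0.19, adjusted p = 0.000197). The proteoglycan gene *Agrn* fell with them (log2 fold change −1.48, adjusted p = 0.00157). *Tnc*, the tenascin gene, had 104, 229 and 104 in control + vehicle and 0 to 5.13 in the combined group (adjusted p = 0.000726). With 1 sample left out, 5 to 7 members fell.

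Integrin genes went both ways, with 2 of the 13 tested (of 16) higher (15.4%) and 3 lower (23.1%), against 6.1% and 5.64% of all genes tested. *Itga5*, the fibronectin receptor subunit gene, fell from 1306, 1601 and 1733 to 201, 262, 223 and 169, a narrow spread in both groups (log2 fold change −2.86, SE 0.20, adjusted p = 2.85e-05). *Itgb5* fell from 9989, 8280 and 6456 to 3016, 3266, 3923 and 3125 (log2 fold change −1.29, adjusted p = 0.000822), and the collagen receptor subunit gene *Itga2* from 1173, 1728 and 2330 to 434, 78.2, 196 and 134 (log2 fold change −3.27, adjusted p = 0.00167, and 0.0101 without control + vehicle replicate 2). *Itga6*, a subunit that binds laminin, rose from 4178, 4774 and 6814 to 13553, 11961, 10212 and 15100 (log2 fold change 1.29, adjusted p = 0.00184, and up to 0.0116 with 1 sample left out). Of 14 genes of epithelial to mesenchymal transition only 5 reached the minimum mean, and 2 of these fell. *Cdh2*, the N-cadherin gene, had 141, 116 and 51.3 in control + vehicle and 0 to 1.09 in the combined group (adjusted p = 0.000329). *Twist1*, a transcription factor gene of that transition, had 51.6, 37.8 and 15.98 and was listed at 0 in all 4 combined samples (adjusted p = 0.00173, and 0.0156 without control + vehicle replicate 2).

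Keratin and junction genes of simple epithelium were all tested, and of the 28 genes 6 fell and 1 rose. *Krt8* had 59890, 43440 and 39349 in control + vehicle and 11039, 23508, 22322 and 18561 in the combined group (log2 fold change −1.37, adjusted p = 0.0068). *Krt19* had 30821, 27950 and 43966 and then 5862, 11334, 13853 and 15415 (log2 fold change −1.62, adjusted p = 0.00602). *Krt20*, a keratin gene of terminally differentiated gut and bladder epithelium, fell from 3493, 3803 and 2443 to 174, 386, 870 and 547 (log2 fold change −2.91, adjusted p = 0.00182). The claudin genes split, since *Cldn4* fell from 5810, 2573 and 5470 to 865, 1993, 1331 and 1224 (log2 fold change −1.74, adjusted p = 0.00502) while *Cldn8* rose from 92.3, 95.6 and 64.1 to 396.5, 283, 488 and 269 (log2 fold change 2.06, adjusted p = 0.00109). *Cldn23* fell from 499, 524 and 600 to 195, 71.9, 202 and 196 (log2 fold change −1.81, adjusted p = 0.00656). Except for *Cldn8*, these calls were lost in 2 or more fits without 1 sample (adjusted p up to 0.0329), and the number of members that fell ranged from 0 (without control + vehicle replicate 1) to 5. *Krt8*, *Krt19* and *Cldn4* are also the epithelial markers that passed as lower, so the lower marker sum of the combined group rests on them in part. Of the 10 markers, 6 were lower and 0 higher without overlap, against 16.9% and 16.1% of all genes tested. Their median log2 difference was −0.51. Whether epithelial content had a part in the lower sum was not tested.

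Some genes of basal and stratified epithelium were higher and others lower, at 4 and 3 of the 21 tested (of 28). *Tmprss11a*, a serine protease gene of squamous epithelium, had 5.79, 5.22 and 3.60 in control + vehicle and 1441, 579, 1326 and 817 in the combined group (log2 fold change 7.40, SE 0.38, adjusted p = 4.9e-06). *Krt6b*, a keratin gene of stratified epithelium, rose by 4.69 (means 145 and 4094, adjusted p = 3.45e-05). *Trp63*, the transcription factor gene of basal cells, was at 0, 0 and 4.91 in controls and at 39.1, 46.3, 62.8 and 82.2 in the combined group (adjusted p = 0.00157). *Pkp1*, a desmosome gene of stratified epithelium, had 163, 160 and 152 and then 0, 3.66, 6.16 and 0 (adjusted p = 0.000781), and *Lor*, the loricrin gene, fell by 3.31 (means 460 and 44.9, adjusted p = 0.000158). The counts were 3 or 4 higher and 3 lower with 1 sample left out.

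Of 32 gland and secretory genes of the endometrium 26 were tested, of which 8 rose and 3 fell, with a median log2 difference of 0.83. Besides *Cuzd1* and *Prss29*, *Klk1*, a kallikrein gene, rose from 14.5, 27.9 and 66.1 to 5927, 976, 4199 and 6610 (log2 fold change 6.84, SE 0.68, adjusted p = 0.000163). The gap junction gene *Gjb2* rose by 2.39 (means 2792 and 12841, adjusted p = 0.00229), the mucin gene *Muc20* by 1.35 (adjusted p = 0.00106) and the calbindin gene *S100g*, an estrogen-responsive gene of the uterus, by 1.60 (adjusted p = 0.00503). *Ltf*, for which the groups also differed by the Ltfcre/+ genotype, was among the members that fell. *Clu*, which encodes a secreted chaperone, fell by 3.45 on the log2 scale (means 113476 and 10321, adjusted p = 0.000275), and *Muc16* went from 25.9, 94.0 and 39.9 to 7.77, 0, 0.974 and 1.92 (adjusted p = 0.00758, and up to 0.0489 with 1 sample left out). *Foxa2*, the transcription factor gene of endometrial glands, had 244, 93.9 and 200 in control + vehicle and 250, 143, 196 and 179 in the combined group (log2 difference 0.18, adjusted p = 0.764). *Muc1* had 14749, 12329 and 11296 and then 10739, 13885, 9935 and 9297 (log2 difference −0.23, adjusted p = 0.389). Neither of these differed beyond the spread between replicates. The number of members that rose was 4 to 7 with 1 sample left out, the fewest without control + vehicle replicate 2.

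Of 27 steroid receptors and hormone response genes 20 were tested, of which 2 rose and 4 fell. *Pgr*, the progesterone receptor gene, had 577, 795 and 858 in control + vehicle and 429, 228, 248 and 339 in the combined group (log2 fold change −1.28, adjusted p = 0.00686, lost in 6 of 7 fits without 1 sample with adjusted p up to 0.0341). *Esr1*, the estrogen receptor gene, had 3301, 3938 and 4374 and then 6239, 3462, 5138 and 4857, which overlap (log2 difference 0.33, adjusted p = 0.284). *Igfbp3*, which encodes a binding protein of insulin-like growth factors, fell from 2069, 2142 and 2487 to 158, 237, 310 and 185 (log2 fold change −3.36, SE 0.24, adjusted p = 2.85e-05). *Klf9*, a transcription factor gene that responds to steroids, rose from 310, 297 and 249 to 1290, 922, 773 and 939 (log2 fold change 1.76, SE 0.20, adjusted p = 0.000373). *Cyp17a1*, a steroid hydroxylase and lyase gene, was listed at 0 in control + vehicle and at 215, 162, 105 and 200 in the combined group (adjusted p = 2.14e-05). Among 19 transcription factor genes of the Müllerian duct 8 were tested. *Pax8* rose from 5448, 5240 and 4560 to 8709, 10023, 9005 and 9139 (log2 fold change 0.86, SE 0.13, adjusted p = 0.00148), and *Sox17* fell from 3615, 3273 and 2800 to 1041, 1727, 1681 and 750 (log2 fold change −1.39, adjusted p = 0.00675, and up to 0.0329 with 1 sample left out).

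Proteases and their inhibitors changed in both directions. In the list of serine proteases and inhibitors 37 of 43 were tested, of which 5 rose and 8 fell (4 to 6 and 5 to 9 with 1 sample left out, 5 without control + vehicle replicate 1 or 2 or replicate 3 or 4 of the combined group). *Serpina3n*, a serine protease inhibitor gene, had 2.91, 0.899 and 73.3 in control + vehicle and 979, 1433, 1098 and 531 in the combined group (log2 fold change 6.86, SE 1.04, adjusted p = 0.00161). The protease gene *Prss22* fell by 3.38 (means 3168 and 330, adjusted p = 0.000173), and the tumor suppressor serpin gene *Serpinb5* by 2.60 (adjusted p = 0.00131). Metalloproteinases and their inhibitors counted 4 rises and 4 falls among 22 tested (of 30), with 2 rises without control + vehicle replicate 1 or 2 or without replicate 4 of the combined group. *Mmp7*, the matrilysin gene of glandular epithelium, fell from 27559, 23889 and 9397 to 984, 1883, 435 and 452 (log2 fold change −4.56, SE 0.54, adjusted p = 0.000395). *Mmp11* fell from 193, 238 and 147 to 14.8, 34.8, 11.7 and 17.5 (log2 fold change −3.31, adjusted p = 0.000791), and *Adam12* went from 163, 289 and 122 to 9.65, 1.59, 0 and 0 (adjusted p = 0.000974). *Mmp15*, a membrane-bound metalloproteinase gene, rose from 66.3, 116 and 279 to 2899, 3595, 1839 and 2181 (log2 fold change 4.29, SE 0.43, adjusted p = 0.000171).

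Of 39 carbonic anhydrases, channels and aquaporins 31 were tested, of which 10 fell and 4 rose. *Car4* and the aquaporin genes *Aqp5* and *Aqp8* rose (log2 fold changes 2.32 and 3.15 for the aquaporins, adjusted p = 0.000159 and 4.75e-05). *Aqp8*, a water channel gene, had means of 13815 and 117395. Falls included the cotransporter gene *Slc12a2* (log2 fold change −1.39, adjusted p = 0.00181), the calcium-activated chloride channel gene *Ano1* (−1.27, adjusted p = 0.00367) and the bicarbonate transporter gene *Slc4a4* (−2.08, adjusted p = 0.00114). Together with *Cftr* these genes encode proteins of epithelial chloride and bicarbonate transport. *Clic6* fell from 120, 261 and 591 to 4.41, 0, 19.8 and 0 (log2 fold change −6.35, adjusted p = 0.00298, and up to 0.0160 with 1 sample left out). The number that fell was 4 without control + vehicle replicate 2, 6 without replicate 1, and up to 11.

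Genes of axon guidance, which also act in epithelial sorting, were tested for 33 of 39 members, of which 13 fell and 3 rose, with a median log2 difference of −0.89. *Ephb4*, an ephrin receptor gene, fell from 1420, 1331 and 1611 to 43.8, 105, 140 and 50.4 (log2 fold change −4.24, SE 0.39, adjusted p = 0.000115). *Ephb2*, another receptor gene, had 263, 240 and 304 in control + vehicle and 0 to 3.08 in the combined group (adjusted p = 7.98e-05). *Epha4* fell from 1013, 1094 and 448 to 66.0, 196, 192 and 149 (log2 fold change −2.50, adjusted p = 0.0034, and up to 0.0204 with 1 sample left out). *Ntn1*, the netrin ligand gene, rose by 2.26 (means 987 and 4791, adjusted p = 0.000298), and the semaphorin gene *Sema4a* by 1.88 (adjusted p = 0.000152). The number of falls was 3 without control + vehicle replicate 1, 2 without replicate 2, 7 without replicate 3 and 6 without replicate 4 of the combined group.

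Aldo-keto reductase and glutathione S-transferase genes were tested for 30 of 32 members, of which 6 rose and 1 fell. *Akr1c18*, whose enzyme inactivates progesterone, had 4650, 4247 and 5452 normalized counts in control + vehicle and 133837, 82169, 129039 and 137939 in the combined group (log2 fold change 4.64, SE 0.22, adjusted p = 3.61e-06). That is a 24.9-fold rise with no overlap. *Akr1b8* rose from 1249, 652 and 1344 to 3059, 3814, 4790 and 3098 (log2 fold change 1.81, adjusted p = 0.00131). *Gsta1* and *Gsta2*, transferase genes of a close family whose reads may be shared, rose by 3.18 and 2.92 (adjusted p = 0.00611 and 0.00342, up to 0.0247 and 0.0169 with 1 sample left out). Only 3 members of the list rose without control + vehicle replicate 2.

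Leukocyte markers did not move together. Of the 10 markers 6 were tested, of which 2 rose and 1 fell. *Cd68*, a lysosomal gene of macrophages that epithelium can also express, had 1916, 1180 and 2474 in control + vehicle and 4421, 3678, 7407 and 5487 in the combined group (log2 fold change 1.51, adjusted p = 0.00502), and it makes up most of the marker sum. *Ptprc*, the common leukocyte antigen gene, had 12.53, 17.4 and 38.5 and then 514, 161, 119 and 265 (log2 fold change 3.40, adjusted p = 0.00233). *Lyz2*, a lysozyme gene of myeloid cells, had 70.8, 54.3 and 41.2 and then 8.73, 0, 5.39 and 2.04 (log2 fold change −3.89, adjusted p = 0.00802). All 3 calls were lost without control + vehicle replicate 1 or 2 (adjusted p up to 0.0203, 0.0125 and 0.0407).

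The combined group was then set against each single treatment. The same 4 combined samples enter every comparison. Against control + A83-01, 12915 genes were tested and 3 passed the thresholds (0.0232%), all of them higher. The groups did not overlap in 6.12% of the genes tested. Unadjusted p-values below 0.05 numbered 1229 (9.52%), and the median width of the 95% interval to either side of the log2 difference was 0.56. Differences of less than that size were mostly not detectable. The interval is not adjusted for the number of genes, so larger differences could miss the thresholds as well. *Otop1*, a proton channel gene, had 69.9, 57.1, 77.4 and 59.2 in control + A83-01 and 573, 644, 671 and 380 in the combined group (log2 fold change 3.06, SE 0.25, adjusted p = 0.00285). *Ncald*, a neuronal calcium sensor gene, had 528, 502, 633 and 653 and then 2631, 2521, 2398 and 1750 (log2 fold change 2.00, SE 0.17, adjusted p = 0.00285). *Nlrp6*, an inflammasome sensor gene of epithelium, had 116, 255, 341 and 162 and then 1566, 1567, 1700 and 1415 (log2 fold change 2.95, SE 0.30, adjusted p = 0.00916). None of the 3 passed without control + A83-01 replicate 2 or 4 or without replicate 1, 2 or 3 of the combined group, where the count was 0, and 2 passed without replicate 4 of the combined group. These genes were named after their values were seen. *Lpo*, a secreted peroxidase gene, was next with adjusted p = 0.0109 (means 2304 and 7927).

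Against *Smad2/3* cKO with DMSO, 12998 genes were tested and limma called 0 (0%), with 554 genes at an unadjusted p below 0.05 (4.26%). The groups did not overlap in 2.9% of the genes tested, with 1.88% higher and 1.02% lower in the combined group. The lowest adjusted p was 0.0501, for *Nedd9*, at 1906, 2938, 2688 and 2155 in *Smad2/3* cKO and 887, 989, 810 and 932 in the combined group (log2 difference −1.40, SE 0.15). The 95% intervals reached a median of 0.48 to either side, and a threshold that is missed does not show that the groups were alike. Replicate 2 of *Smad2/3* cKO carried the macrophage gene *Lyz2* at 3372 normalized counts, and the count was 0 with and without it. In the labels this sample and replicate 1 of the combined group bear the same number. Their deviations from the group means correlated at 0.365, and those of a pair with different numbers reached 0.393. Pairing by this number was not fitted. No gene passed against both single treatments.

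Means in each group follow for some of the named genes, and in several of them the single treatments lay between the other groups. The rule for naming picked these genes for large changes in the same combined samples. Less extreme values in the single treatments can follow from that choice alone. *Cuzd1* had means of 23.8 ± 9.81 (SD, n = 3) in control + vehicle, 7120 in control + A83-01, 7327 in *Smad2/3* cKO and 17226 ± 7334 (SD, n = 4) in the combined group. The combined mean exceeded that of control + A83-01 by 1.18 on the log2 scale (95% interval 0.35 to 2.00, adjusted p = 0.33) and that of *Smad2/3* cKO by 1.46 (0.16 to 2.75, adjusted p = 0.99). *Pmepa1* had means of 1017 in control + vehicle, 46.5 in control + A83-01, 72.7 in *Smad2/3* cKO and 7.17 in the combined group, with log2 differences of −2.79 (95% interval −4.13 to −1.46, adjusted p = 0.12) and −2.95 (−4.70 to −1.19, adjusted p = 0.99). *Ccn2* had means of 18568, 2713, 2568 and 1240 in the same order, with log2 differences of −1.13 (−1.56 to −0.69, adjusted p = 0.093) and −0.90 (−1.67 to −0.14, adjusted p = 0.99). *Fn1* had means of 3779, 9.81, 9.91 and 13.7, so the combined group was not lower than either single treatment (log2 differences 0.55, −0.78 to 1.89, and 1.12, −0.89 to 3.12). For *Aldh1a2* the means were 779, 11862, 10463 and 14751 (log2 differences 0.18, −0.76 to 1.12, and 0.51, −0.66 to 1.68). None of these differences from a single treatment passed the thresholds.

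**Figure D5:**
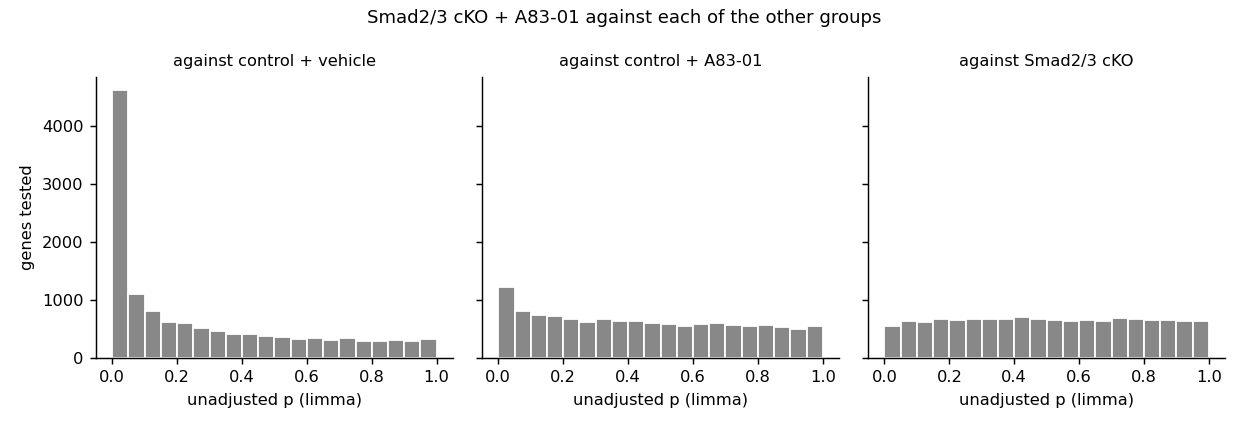
Number of genes tested (y axis) by unadjusted limma p-value (x axis) for *Smad2/3* cKO + A83-01 against control + vehicle (13097 genes), control + A83-01 (12915 genes) and *Smad2/3* cKO (12998 genes). Genes below 0.05 number 4622, 1229 and 554, and the last histogram has no peak at low values.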

How the data were processed

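RNA was measured by sequencing in organoids of 15 samples in 4 groups, and groups were taken from the genotype and treatment in the labels. The deposited values are normalized counts, a signal that the authors obtained with Salmon 1.4.0 and DESeq2 1.32.0 on GRCm39, per the submitters' processing notes. Whole reads divided by 1 factor per sample would fall on multiples of 1 step. Only 11.3 to 21.7% of values below 12 lay within 0.02 of a whole multiple of the lowest step. The values are thus not whole reads scaled by 1 factor per sample, and a count test was not used. The depth of each sample was estimated from that blurred step and is approximate. Size factors assume that most genes do not change.

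Of 16729 genes, 16697 had a symbol and 17 symbols were shared. For each comparison, log2(normalized count + 1) of its samples alone was modelled in R 4.3.3 with limma 3.58.1 (eBayes with a mean-variance trend), for genes whose mean reached 10. Fold changes are on this scale and understate those of low genes. A gene passed when its adjusted p (Benjamini-Hochberg) was under 0.01 and its fold over 1.4 (or under 0.714). A group whose mean lay at or under about 3 was given no fold. Tables and figures used Python 3.11.15 with pandas 2.3.3, numpy 2.4.6 and matplotlib 3.10.9, and the fit was checked on simulated data.

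The comparison, the gene lists and their members were chosen with earlier results of these data known. Named genes were the 10 largest rises and falls whose higher group averaged 100 or more and did not overlap the other, the targeted genes, genes the study names and up to 4 per list, plus up to 6 that passed against both single treatments, of which there were 0. Other genes given with their values, among them *Rps12*, *Ctsb*, *Ltf*, *Smad4*, *Otop1*, *Ncald*, *Nlrp6*, *Nedd9* and *Lpo*, were chosen after their values were seen. Some genes are not reported here.

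Alternatives were other pseudocounts, filters, normalizations, thresholds, eBayes without trend, sample weights, a replicate block, a fit over all 4 groups and leaving out each sample. Gene positions and promoter sequences are those of GRCm38 tables, since no GRCm39 table was used here.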

Additional observations from a re-analysis of the deposited data

Results flagged for a closer look

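For each named gene above 10 normalized counts and for 4 measures of the libraries, the highest or lowest of the 4 values of *Smad2/3* cKO + A83-01 was set against the other 3 with Dixon's test at its 95% critical value. Control + vehicle, with 3 samples, and the single treatments were not tested. Of 117 such sets of 4 values, 12 passed, and chance flags about 1 in 20. Replicate 2 of the combined group held 8 of the 12, and it is the sample whose *Smad2* value lay in the control range. It had the highest *Smad2* (1211 normalized counts, with 804 to 854 in the others) and the lowest *Smad3* (797, with 1648 to 1689 in the others). It was also highest for *Rbp4* (409, others 91.5 to 139), *Adh1* (1222, others 94.0 to 195), *Fst* (32.4, others 1.95 to 6.46) and *Gsta2* (199, others 75.4 to 95.2), and lowest for *Cldn23* (71.9, others 195 to 202) and *Akr1c18* (82169, others 129039 to 137939). Replicate 1 was highest for *Nptx1* (9276, others 6032 to 6305) and lowest for *Ptgr1* (921, others 1475 to 1527). Replicate 3 was highest for *Acsbg1* (15.9, others 1.57 to 3.69) and had the most estimated reads (42.9 M, others 18.5 to 22.7 M). The groups still did not overlap for *Rbp4*, *Adh1*, *Fst*, *Gsta2*, *Cldn23*, *Akr1c18*, *Nptx1*, *Ptgr1* and *Acsbg1*, whereas those of *Smad2* and *Smad3* did.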

How the results depend on the processing

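Against control + vehicle, 1538 genes passed, and the count stayed within 1.5 times of that under other pseudocounts (1443 and 1597), filters (1141 without and 1391 at a mean of 50), quantile (1565) and median ratio (1540) scaling, eBayes without trend (1043), sample weights (1880), the fit over all 4 groups (1661) and no fold threshold (1538). It rose to 2930 (1482 higher and 1448 lower) at an adjusted p below 0.05, and ranged from 736 to 1580 with 1 sample left out. Samples with the same replicate number in their titles had deviations with correlations of −0.157, −0.0567 and 0.0309, so the replicate numbers gave no sign of pairing. A block on the replicate numbers needs each number in both groups, so it also left out replicate 4 of the combined group. That fit gave 601 genes (328 higher and 273 lower), of which 584 were among the 1538, and *Id2* had a log2 difference of −0.24. Leaving out that sample without a block gave 935 genes. Against control + A83-01, 3 genes passed, with 0 without a filter, 1 without trend, 0 with the replicate block, 5 over all 4 groups (4 higher and 1 lower) and 0 to 4 with 1 sample left out. Against *Smad2/3* cKO, 0 passed in each of these fits, the block included. Of all values of named genes under these alternatives, 2159 kept their direction and their side of the thresholds, 269 no longer passed, 6 newly passed and 7 reversed. Every reversed value belonged to a gene that had not passed. With 1 sample left out, the log2 differences ranged from −0.24 (without replicate 4 of the combined group; −0.082 without control + vehicle replicate 2) to 0.17 for *Id2*, from −0.23 to 0.45 for *Foxa2* and from −0.050 to 0.49 for *Rps12* (both lowest without control + vehicle replicate 2), from −0.11 (without control + vehicle replicate 3) to 0.25 for *Smad4*, and from −0.32 to 0.038 (without replicate 2 of the combined group) for *Smad3*. The cause of these shifts was not tested, apart from the fewer samples in each fit. With 3 control samples, low values rest on few reads. Differences smaller than about 0.54 on the log2 scale, the median reach of the unadjusted 95% interval, were mostly not detectable. Larger ones could miss the adjusted threshold as well.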

Other observations

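Of 36 tested genes of S phase and mitosis 1 rose and none fell in the combined group against control + vehicle, where 6.1% of all genes tested rose and 5.64% fell. The groups did not overlap for 5 members that were higher and 1 that was lower, and the median log2 difference was 0.21. The gene that rose was *Rrm2*, a subunit gene of ribonucleotide reductase, at 2799, 3009 and 3895 normalized counts in control + vehicle and 16761, 18067, 12614 and 14678 in the combined group (log2 fold change 2.26, standard error 0.17, adjusted p = 3.94e-05 from limma). *Mki67* and *Top2a*, which mark dividing cells, had log2 differences of 0.36 (adjusted p = 0.417) and 0.34 (adjusted p = 0.369). Among 19 cell cycle inhibitors and G1 cyclins 3 rose and 3 fell. *Rbl2*, a retinoblastoma-like gene, rose from 571, 697 and 580 to 2369, 1282, 1786 and 1589 (log2 fold change 1.48, adjusted p = 0.00106). *Cdkn2c*, an inhibitor gene of cyclin-dependent kinases, rose from 119, 128 and 145 to 340, 298, 308 and 368.2 (log2 fold change 1.321, adjusted p = 0.00208, and up to 0.0106 with 1 sample left out).

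Among 29 tested chemokines, cytokines and receptors (of 43) 2 rose and 2 fell. That is 6.9% each way, near the 6.1% higher and 5.64% lower among all genes tested. *Csf1*, the macrophage growth factor gene, had 2047, 3014 and 4823 in control + vehicle and 86616, 55802, 33039 and 43609 in the combined group, with no overlap (log2 fold change 4.05, standard error 0.36, adjusted p = 8.74e-05). *Il13ra1*, a cytokine receptor gene, rose by 1.24 (adjusted p = 0.00185, and up to 0.0114 with 1 sample left out). *Cx3cl1*, the fractalkine gene, fell from 2426, 2608 and 1505 to 730, 797, 499 and 545 (log2 fold change −1.75, adjusted p = 0.000937), and *Tnfsf10*, a death ligand gene, from 495, 527 and 302 to 103, 109, 25.9 and 37.0 (log2 fold change −2.88, adjusted p = 0.00394, and up to 0.0226). Of 31 interferon-stimulated genes 1 rose (3.23%, below the share of all genes tested). It was *Isg20*, an exonuclease gene, from 638, 317 and 299 to 1242, 2119, 1579 and 2210 (log2 fold change 2.15, adjusted p = 0.00103).

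In the Notch pathway 1 of 14 tested genes rose (7.14%), *Hey1*, and 2 fell (14.3%), where 6.1% of all genes tested rose and 5.64% fell. *Notch4*, a receptor gene, fell from 75.9, 60.8 and 124 to 2.73, 4.62, 8.29 and 5.82 (log2 fold change −3.80, adjusted p = 0.00108), and the ligand gene *Dll4* fell by 1.52 on the log2 scale (adjusted p = 0.00685, and up to 0.0374 with 1 sample left out). None of 11 tested genes of the EGF family and its receptors passed in limma, with *Egfr* at a log2 difference of −0.74 (adjusted p = 0.0205) and *Areg* at −2.52 (adjusted p = 0.0337). Of 19 prostaglandin genes 3 rose, among them *Hpgds*, a prostaglandin D synthase gene (1.17, adjusted p = 0.00741, and up to 0.0217). Of 7 tested motile cilia genes 1 rose, *Tppp3* (means 2.65 and 34.7, adjusted p = 0.0094, and up to 0.0356).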
